A study of Mus musculus with 36 samples.

Results

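The comparison described here set splenic natural killer (NK) cells from cultures with antibodies to NKp46 and DNAM-1 against NK cells from cultures left in medium. Its members are 6 of the 36 libraries of the study, 3 in each group, chosen by the column names of the authors' expression table. Both groups came from wild-type mice (B2m+/+, C57BL/6). Whole splenocytes were kept for 48 h either in medium or on plate-bound antibodies to the 2 receptors, and the NK cells were isolated afterwards for bulk mRNA sequencing. No allele or agent other than the antibodies separates the groups. Splenocytes of other types were present during the culture, and the labels carry no control antibody. The column names carry the numbers WT1, WT2 and WT3 in each group. These were read as mice, although no label says so outright, and the departures from the group means of libraries with a shared number correlated at only 0.056, 0.033 and 0.088. All results with the mouse as a block rest on this reading, and values below are given in that order. The study as a whole concerns functional and desensitized NK cells, and this comparison asks what prolonged engagement of activating receptors changes in the transcriptome.

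The labels disagree with each other about these libraries. For 4 of the 6, and for 6 of the 9 libraries in the table, the sample title names another group than the column name does. The titles would place all 3 cultures of a mouse number in 1 treatment group. The column names were followed throughout. With the groups taken from the titles, limma called 1 gene in place of the 107 given below, with 1165 genes at an unadjusted p under 0.05.

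NKp46, encoded by Ncr1, is an activating receptor of NK cells that signals through adaptors carrying immunoreceptor tyrosine-based activation motifs, the Fc receptor gamma chain (Fcer1g) and CD3 zeta (Cd247). DNAM-1, encoded by Cd226, is an adhesion and costimulatory receptor that binds nectin family ligands and works together with other activating receptors. Engagement of such receptors leads through Syk family kinases, phospholipase C gamma, calcium and MAP kinases to transient transcription of immediate early genes of the FOS, EGR and NR4A families, and to cytokine and chemokine secretion and granule release. NK cells that receive activating signals for long periods can become less responsive to later stimulation, a state called desensitization.

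The values are TPM (transcript abundance scaled to gene length and to a fixed library total), which keep no record of depth, so the depth of each library is unknown. All 16 NK cell marker genes were above 1 TPM in at least 1 of the 6 libraries, and their summed level was 19330 to 20550 TPM in medium and 20360 to 22120 TPM with the antibodies. The sum includes the effector gene Gzmb, at 1603, 2015 and 2258 TPM in medium and 2656, 3246 and 4318 TPM with the antibodies. Of the 16, 11 had a log2 difference below 0, with a median of -0.115. In 3 of 3 mice 7 were lower and 5 higher (20.3% and 16.2% of all genes tested). Of T cell genes, Cd4 and Cd8b1 were listed at 0 in all 6 libraries, whereas Cd3e was at 23.9, 4.54 and 31.4 TPM in medium and 4.27, 3.91 and 8.72 TPM with the antibodies, and the T cell markers together summed to 241.4 to 443.1 TPM and 220.9 to 309.5 TPM. B cell markers summed to 184.8 to 229.6 TPM in medium and 151.5 to 182.1 TPM with the antibodies, nearly all of it from Ighm (without it 1.82 to 13.2 and 1.84 to 7.60 TPM). The T cell markers other than the receptor constant gene Trbc2 summed to 35.5 to 75.02 TPM and 23.9 to 45.3 TPM, and the myeloid and dendritic cell markers other than Itgax to 30.9 to 56.1 TPM and 27.7 to 36.5 TPM (with it 518.2 to 566.8 TPM and 485.2 to 581.8 TPM). More genes were listed above 0 with the antibodies (17132, 17427 and 18096) than in medium (13555, 14674 and 14604), while the number at 10 TPM or more was 8530 to 8659 with the antibodies and 8712 to 8831 in medium. The antibody libraries were also more alike, with Pearson correlations across genes of 0.944 to 0.953 between replicates against 0.857 to 0.880 among the medium libraries. The part of these library differences in the results below was not tested.

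After 48 h on the antibodies, NK cells held less mRNA of immediate early genes, of the chemokines Ccl3 and Ccl4 and of interferon gamma than cells left in medium. They held more mRNA of the inhibitory receptor Lag3, the costimulatory receptor Tnfrsf9 (4-1BB) and the secreted protein Spp1 (osteopontin). Title groups apart, Lag3 and Tnfrsf9 passed the test in all 16 other processing choices, and Spp1 in 8 of 16. Most cell cycle and sterol synthesis genes tested were higher in 3 of 3 mice, against 16.2% of all genes tested. With the mouse as a block, 25 of 50 and 8 of 24 of them were called higher (2.02% of all genes tested). Without the block 0 and 1 were called (0.285% of all genes tested were called higher). These blocked counts went as low as 0 when 1 library was left out. Gzmb and Prf1 also passed only with the block. The messages of NKp46 and its adaptors Fcer1g and Cd247 had overlapping levels in the 2 groups, although Fcer1g was lower in 3 of 3 mice. Cd226, which encodes DNAM-1, was lower with the block. In bulk RNA, fewer cells expressing a gene and less mRNA per cell cannot be told apart.

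Of 13689 genes tested with limma on log2(TPM + 1), 107 (0.782%) were called at an adjusted p under 0.05. These were 39 higher (0.285%) and 68 lower (0.497%) with the antibodies, and 2458 genes had an unadjusted p under 0.05. The groups did not overlap for any of the 107 (over all genes tested, 9.46% were higher and 11.6% lower in every antibody library than in any medium library), and 78 differed at least 2-fold on that scale. With the mouse as a block, 528 genes (3.86%) were called, 277 higher (2.02%) and 251 lower (1.83%), and all 107 were among them. The shares called in each fit are the background for the list members called below. In 3 of 3 mice, 16.2% of all genes tested were higher with the antibodies and 20.3% lower. Over all genes tested the median log2 difference was -0.04. The count was 23 with only the 2 compared groups in the fit, 45 with no filter on low values, 516 without the medium library of mouse WT3, and 42, 26 and 32 without the antibody library of mouse WT1, WT2 and WT3. The share called higher was 36.4%, and was 46.4% after quantile normalization, 45.6% after median-of-ratios scaling and 46.1% with a pseudocount of 0.1.

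**Figure D1:**
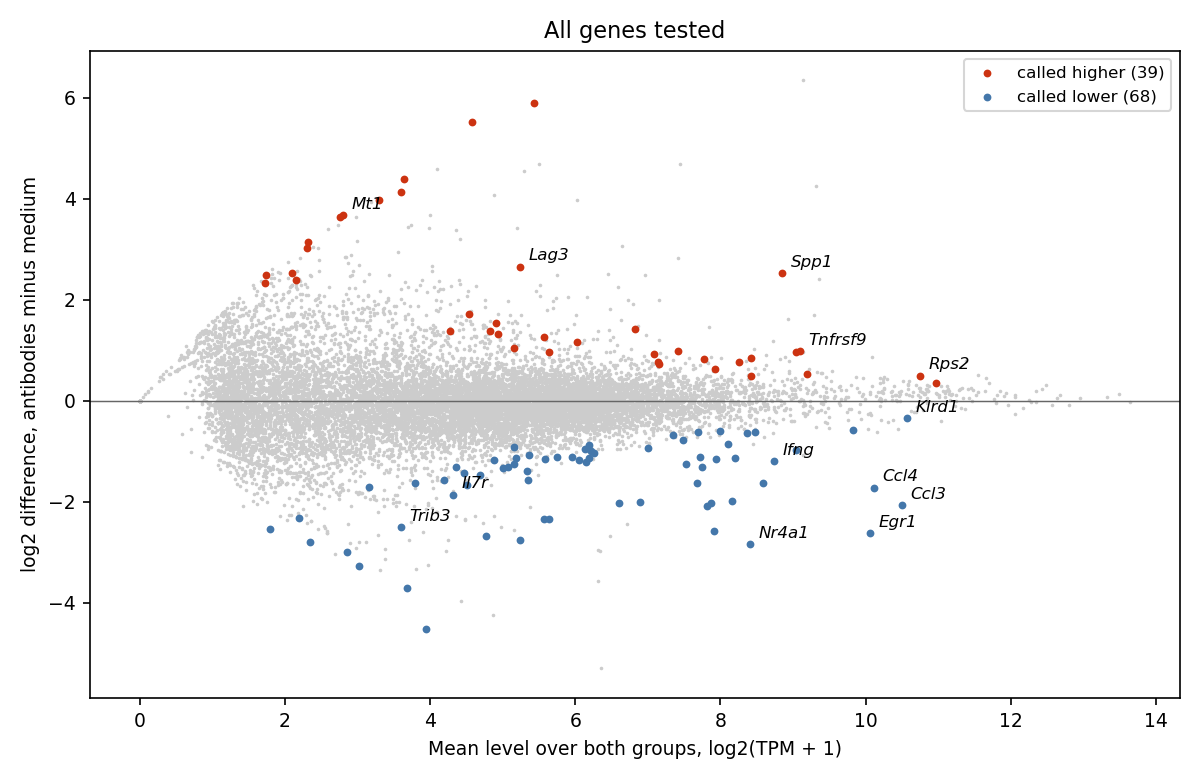
Difference between the antibody and medium groups on the log2(TPM + 1) scale (vertical axis) against the mean level over both groups (horizontal axis, log2(TPM + 1)) for the 13689 genes tested. Blue points are the 68 genes called lower, which include highly expressed early response genes and chemokines, and red points are the 39 called higher; grey points did not pass the test.

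The genes of the engaged receptors came first, with adaptors and other receptors such as Cd2 and Slamf7 that the antibodies did not target. Their values are mRNA only, and surface protein was not measured in these libraries. None of the 16 genes tested was called (background 0.782%), and their median log2 difference was -0.21. With the block 4 were called lower (background 1.83%) and 1 higher (2.02%). In 3 of 3 mice 8 of the 16 were lower (50%, against 20.3% of all genes tested) and 2 higher (12.5%, against 16.2%). Ncr1 was at 926, 973 and 1076 TPM in medium and at 933, 889 and 1002 TPM with the antibodies. Its log2 difference was -0.07 ± 0.09 (SE), with a limma adjusted p of 0.714, and the groups overlapped. Fcer1g was at 1093, 922 and 765 TPM against 885, 871 and 720.4 TPM, and Cd247 at 128, 120.2 and 112 TPM against 115, 131 and 90.2 TPM, again with overlap. Within mice, Fcer1g was lower in 3 of 3 and Cd247 in 2 of 3.

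Cd226 was at 102, 106 and 91.1 TPM in medium and at 71.5, 73.2 and 56.6 TPM with the antibodies. Every antibody library was below every medium library, and the log2 difference was -0.57 ± 0.15, with an adjusted p of 0.106 and 0.0369 with the mouse as a block. Cd226 was also lower than in medium with the study's other antibody pair, to NKp46 and NKG2D, which holds no DNAM-1 antibody. That log2 difference was -1.06, with a limma adjusted p of 0.0115 without the block. Tyrobp, which encodes the adaptor DAP12, was at 1132, 1170 and 1128 TPM and at 974, 940.2 and 939 TPM. Its difference of -0.27 ± 0.06 also passed the test with the block alone (adjusted p 0.0866, and 0.0358 with the block). The block further called the adhesion receptor Cd2 (-0.48) and Klrb1c (NK1.1, -0.63) lower and the SLAM family receptor Slamf7 (0.85) higher. Klrk1, which encodes NKG2D, was at 1936, 1756 and 1947 TPM against 1692, 1682 and 1590 TPM (-0.18 ± 0.07, adjusted p 0.213 and 0.164 with the block). Hcst, the DAP10 adaptor of NKG2D, overlapped between the groups.

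Kinases, scaffolds and lipid enzymes act just downstream of the receptors. Of 29 such proximal signalling genes tested, 0 were called (a background of 0.782% predicts about as few), 4 had an unadjusted p under 0.05, and the median was -0.11. Pik3cd, the leukocyte catalytic subunit of PI3 kinase, was called lower with the block, at 367, 384 and 358 TPM in medium and 307, 269 and 243 TPM with the antibodies (-0.44 ± 0.12). Lat, a membrane scaffold, had the next lowest p, at 66.6, 33.1 and 45.5 TPM against 24.7, 27.5 and 24.6 TPM (adjusted p 0.159, and 0.0876 with the block).

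Immediate early genes encode transcription factors and mRNA regulators that cells switch on within minutes of a stimulus, without new protein synthesis. Of 25 such genes tested, NR4A factors included, 11 were called lower and 0 higher, with the same counts with the block. Over all genes tested 0.497% were called lower, and 1.83% with the block. The median log2 difference was -0.78, against -0.04 over all genes, and 18 of the 25 were lower in 3 of 3 mice, against 20.3% of all genes. A list of 24 anergy and exhaustion regulators had 4 members called, all lower, and each of the 4 is also an early gene (Nr4a1, Nr4a2, Egr2 and Egr3).

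Of the early genes that fell, Egr2, Nr4a1, Zfp36 and Dusp2 were chosen because a start of theirs holds a motif marked below. The 250 bases before an annotated start of each are given, from RefSeq on GRCm38.p6. This is not the GRCm39 build of the expression values, so these coordinates serve only for the sequences. Capitals mark matches to a CArG box, the site of serum response factor, or to the EGR motif GCGGGGGCG, searched on both strands. Each sequence runs 5′ to 3′ toward the start, with Zfp36 on the minus strand and the others on the plus strand.
Egr2, chr10:67537619-67537868: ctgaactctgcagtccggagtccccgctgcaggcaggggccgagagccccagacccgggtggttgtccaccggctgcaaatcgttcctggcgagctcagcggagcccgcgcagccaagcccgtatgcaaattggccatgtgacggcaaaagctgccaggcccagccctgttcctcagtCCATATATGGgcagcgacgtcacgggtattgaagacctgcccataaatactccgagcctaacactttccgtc
Nr4a1, chr15:101266596-101266845: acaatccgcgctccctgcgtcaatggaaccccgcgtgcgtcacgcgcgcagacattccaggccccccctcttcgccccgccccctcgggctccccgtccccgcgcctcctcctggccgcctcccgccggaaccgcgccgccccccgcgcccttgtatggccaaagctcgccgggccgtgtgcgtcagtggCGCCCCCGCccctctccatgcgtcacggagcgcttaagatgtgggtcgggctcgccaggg
Zfp36, chr7:28379229-28379478: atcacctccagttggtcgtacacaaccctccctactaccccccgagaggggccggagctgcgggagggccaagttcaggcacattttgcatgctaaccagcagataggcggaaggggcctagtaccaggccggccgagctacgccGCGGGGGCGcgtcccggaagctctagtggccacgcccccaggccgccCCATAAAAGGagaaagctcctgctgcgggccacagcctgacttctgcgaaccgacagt
Dusp2, chr2:127335909-127336158: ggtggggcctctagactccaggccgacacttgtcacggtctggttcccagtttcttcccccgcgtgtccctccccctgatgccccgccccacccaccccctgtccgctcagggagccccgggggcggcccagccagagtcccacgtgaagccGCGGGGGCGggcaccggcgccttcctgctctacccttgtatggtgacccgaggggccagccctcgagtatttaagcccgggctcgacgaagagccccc

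Of the 11 early genes that fell, 8 had a promoter in the table, with 12 starts. The EGR motif stood in 3 of the 12 (Nr4a1, Zfp36 and Dusp2), against 2.57% of 32851 starts of all genes and 4.68% of the starts of genes tested here. The CArG box stood in 5 of the 12, which belong to 2 genes because 4 of them are overlapping or nearby starts of Egr2, against 1.47% of all starts and 1.08% of those of genes tested. A further Egr2 start, not shown, held an NF-kappaB site and no CArG box. Of the other motifs searched, the NF-kappaB site stood in 2 of the 12 (6.79% of starts of genes tested) and TGACGTCA in 1 (2.71%). The AP-1 motif TGANTCA and the ATF4 motif TGATGNAA stood in 0. All these matches describe the letters in the window and do not show binding.

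Nr4a1, Egr1 and Egr2 had the largest differences among the 11. Nr4a1, an orphan nuclear receptor induced by antigen receptor signals, was at 709, 576 and 500.02 TPM in medium and at 100.1, 87.9 and 61.6 TPM with the antibodies. The highest antibody library was far below the lowest medium library, and the log2 difference was -2.84 ± 0.22 (limma adjusted p 0.000519). Egr1 was at 2312, 1692 and 1504 TPM against 324, 320.5 and 238 TPM (-2.63 ± 0.19), so it was among the most abundant of these messages in medium. Egr2 was at 522, 398 and 318 TPM against 79.7, 82.4 and 45.5 TPM (-2.58 ± 0.24). Egr2 and Egr3 are known as factors that restrain lymphocyte activation. Nr4a2 (-2.0 ± 0.19) and Egr3 (-2.02 ± 0.20) also fell, whereas Nr4a3 missed the test (-0.30, adjusted p 0.51).

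The AP-1 subunit Fos was at 103, 72.9 and 71.96 TPM in medium and at 13.2, 18.2 and 14.8 TPM with the antibodies, a fall of -2.34 ± 0.24. Junb fell by less, from 468, 417 and 327 TPM to 181, 182 and 179 TPM (-1.14 ± 0.13). Other AP-1 genes were not called, with differences of -0.12 for Jun, -0.78 for Fosb and 0.37 for Jund. Zfp36, which encodes the mRNA-destabilizing protein tristetraprolin, went from 470.4, 341 and 279.6 TPM to 89.03, 91.8 and 70.1 TPM (-2.08 ± 0.20). Ier2 (-2.0 ± 0.22) and the antiproliferative gene Btg2 (-1.16 ± 0.11) completed the set, each with antibody and medium libraries apart. Between 8 and 12 of the 25 genes were called lower under each other processing choice except the title groups, 8 of them with only the 2 compared groups in the fit.

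**Figure D2:**
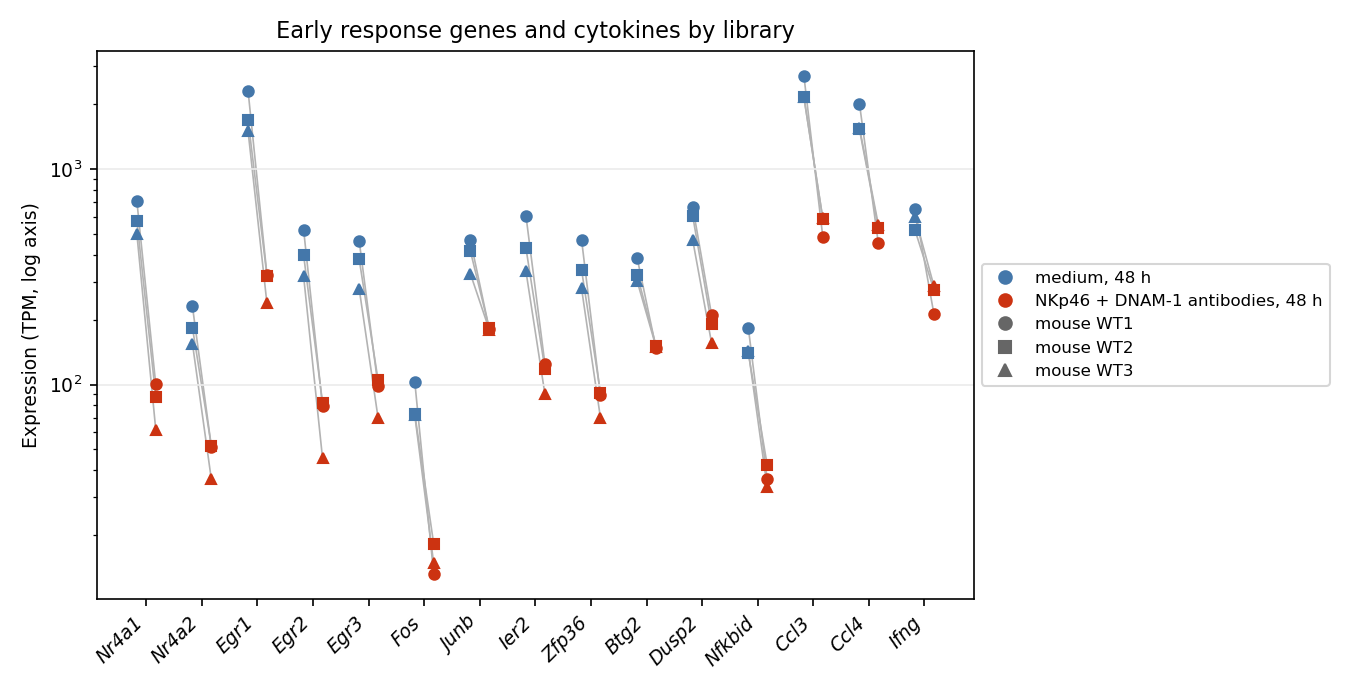
Expression in TPM (logarithmic vertical axis) of 15 genes that fell, in each library; blue symbols are medium, red symbols the antibodies, symbol shapes the mice, and grey lines join libraries of a mouse number. For every gene shown the 3 antibody libraries lie below the 3 medium libraries.

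Feedback inhibitors of MAP kinase signalling were examined next. Dusp2, a nuclear MAP kinase phosphatase that is also an early gene, was at 669, 605 and 468 TPM in medium and 209.8, 190.1 and 156 TPM with the antibodies (-1.64 ± 0.17, adjusted p 0.00209). Spry2, an inhibitor of receptor signalling to RAS, was at 308, 315 and 292 TPM against 198, 196 and 212 TPM (-0.59 ± 0.09). Of 18 MAP kinase and calcium feedback genes tested these 2 were called, both lower, and Dusp6 was also called lower with the block (-0.65). Over all genes tested 0.497% were called lower, and 1.83% with the block. Calcineurin and NFAT genes in the list were not called.

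Among 24 NF-kappaB genes tested, 2 were called lower and 1 higher (0.497% and 0.285% of all genes tested), and the median was -0.04. Nfkbid, an atypical nuclear inhibitor protein of the family, was at 184, 141 and 143 TPM in medium and 36.5, 42.3 and 33.4 TPM with the antibodies (-2.02 ± 0.16, adjusted p 0.000519). Nfkbiz, another nuclear member, fell from 108, 115 and 84.8 TPM to 47.4, 46.4 and 52.9 TPM (-1.05 ± 0.15). Tnfaip3, which encodes the ubiquitin-editing inhibitor A20, went the other way, from 178, 198 and 196 TPM to 280.5, 305 and 296 TPM (0.62 ± 0.09, adjusted p 0.0149). The subunit genes Nfkb1, Rela and Rel were not called.

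Cytokines and chemokines are the secreted output of activated NK cells. Of 21 tested, 5 were called lower and 1 higher (9 and 3 with the block), with a median of -0.23. Over all genes tested 0.497% were called lower and 0.285% higher, and 1.83% and 2.02% with the block. Without 1 library the list counts were 3 to 7 lower and 0 to 1 higher, and 2 to 7 and 0 to 2 with the block as well. With only the 2 groups in the fit they were 2 and 0. Ccl3, an inflammatory chemokine, was at 2713, 2165 and 2155 TPM in medium and at 486, 589 and 591 TPM with the antibodies (-2.07 ± 0.16, adjusted p 0.000519). Ccl4, its close relative, was at 2011, 1526 and 1556 TPM against 452, 533 and 552 TPM (-1.72 ± 0.15). Ifng was at 656, 519.9 and 600.3 TPM against 212, 275 and 286 TPM, a fall of -1.20 ± 0.14 (adjusted p 0.00373). In all 3 genes the highest antibody library was below the lowest medium library.

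Less abundant cytokine messages differed in both directions. The IL-6 family cytokine gene Osm fell from 55.3, 48.3 and 37.3 TPM to 17.9, 18.6 and 17.7 TPM (-1.31 ± 0.20), and Tnfsf14 (LIGHT) from 73.98, 55.1 and 49.9 TPM to 21.7, 23.7 and 13.7 TPM (-1.57 ± 0.26). Tnf was at 40.6, 33.2 and 52.2 TPM against 9.54, 9.82 and 19.98 TPM, with a difference of -1.66 ± 0.40 and an adjusted p of 0.098 (0.0151 with the block). Ltb (-0.88), Flt3l (-0.81) and Ccl5 (-0.41) were likewise called lower with the block alone. Ccl9 rose, from 12.1, 13.1 and 18.8 TPM to 29.6, 41.8 and 48.2 TPM (1.38 ± 0.24, adjusted p 0.0337), and Ccl1 (1.55) and Tgfb1 (0.45) were higher with the block. Xcl1 was not called (-0.23, adjusted p 0.641).

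Cytotoxic effector genes encode granule proteases, perforin, their inhibitors and death ligands. Of 22 tested, 1 was called higher and 1 lower, and with the block 8 were higher and 2 lower (2.02% and 1.83% of all genes tested). The median was 0.22, and 11 of the 22 were higher in all 3 mice, against 16.2% of all genes tested. Fasl, the death ligand that triggers Fas on target cells, fell from 350.1, 328.5 and 381 TPM to 205, 209 and 171 TPM (-0.85 ± 0.12, adjusted p 0.0158). Serpinb9b, a granzyme inhibitor of the clade B serpins, rose from 50.6, 60.8 and 70.1 TPM to 131, 156 and 206 TPM (1.41 ± 0.24, adjusted p 0.0337).

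Gzmb, which encodes granzyme B, was at 1603, 2015 and 2258 TPM in medium and at 2656, 3246 and 4318 TPM with the antibodies. The groups did not overlap, and within mice the level was higher in 3 of 3. The difference was 0.78 ± 0.21 with an adjusted p of 0.120, and 0.0018 with the mouse as a block. Prf1, the pore-forming perforin, was at 512, 644 and 619 TPM against 785, 835 and 1048 TPM (0.58 ± 0.15, adjusted p 0.106, and 0.0168 with the block). Gzmc was at 15.01, 40.2 and 49.6 TPM against 125, 144 and 647 TPM (adjusted p 0.126, and 0.00993 with the block). Gzmd and Gzme were listed at 0 in the 3 medium libraries and at 5.24, 4.51 and 15.7 TPM and 6.32, 2.87 and 17.8 TPM with the antibodies. Both passed the filter on low values only through antibody libraries, so their part in the effector list counts supports nothing by itself. These granzymes are near-identical neighbours, so the authors' counting may have divided reads among them.

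The serpins Serpinb6b (1.02) and Serpinb9 (0.54), which protect cells from their own granule proteases, were higher with the block, and the protease Ctsw (-0.43) was lower. Gzma, the most abundant granzyme, was not called (0.20, adjusted p 0.30), nor were the granule release genes Unc13d, Stx11, Stxbp2 and Rab27a. Without 1 library, the block called 3 to 5 effector genes higher in place of 8.

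Lag3, an inhibitory receptor for MHC class II and other ligands, was called the most strongly among 21 inhibitory receptor genes. It was at 9.11, 8.65 and 9.72 TPM in medium and at 56.97, 53.02 and 82.6 TPM with the antibodies. The medium libraries were nearly equal and far below the antibody libraries, and the log2 difference was 2.66 ± 0.24 (adjusted p 0.00101). Havcr2 (TIM-3) was at 0.87, 1.38 and 3.21 TPM against 10.7, 10.4 and 18.4 TPM (2.37 ± 0.58, adjusted p 0.0993, and 0.0202 with the block). Klrg1 was at 42.1, 52.6 and 64.4 TPM against 80.6, 79.4 and 113 TPM (0.77, called with the block). Tigit (0.86, adjusted p 0.139) and Ctla4 (2.08, adjusted p 0.121) were not called.

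The CD94 gene Klrd1, whose product pairs with NKG2 receptors, fell from 1796, 1630.5 and 1708 TPM to 1371, 1299.6 and 1352 TPM (-0.35 ± 0.07, adjusted p 0.0481). Its call was lost in 9 of 16 other processing choices, title groups apart. With the block and 1 library left out, Klrd1 was called in 0 of 6 fits. Its partner Klrc1 (-0.36) and the Ly49 receptor gene Klra9 (-0.43) were lower with the block; reads of these families can be shared between near-identical members. Cd69, a surface marker of recent activation that is listed here with inhibitory receptors, fell from 398, 223 and 293 TPM to 98.6, 114 and 151 TPM (-1.31 ± 0.22, adjusted p 0.0337). In all, 1 inhibitory receptor gene was called higher and 2 lower, and 3 and 4 with the block, with a list median of -0.02. Over all genes tested 0.285% were called higher and 0.497% lower, and 2.02% and 1.83% with the block.

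Tnfrsf9, the costimulatory receptor 4-1BB that lymphocytes show after activation, had one of the lowest p-values of the comparison. It was at 340.2, 376 and 391 TPM in medium and at 739, 718 and 728 TPM with the antibodies (0.98 ± 0.08, adjusted p 0.000519). Both groups were tight and well apart. It was the single gene called among 12 costimulatory TNF receptors and related genes tested (background 0.782%). Tnfrsf18 (GITR) was lower in each antibody library without being called (-0.51, adjusted p 0.148). The 250 bases before the downstream of the 2 Tnfrsf9 starts in RefSeq (GRCm38.p6, plus strand) are shown because they hold matches to both the NF-kappaB site and the AP-1 motif TGANTCA. Those before the upstream start, not shown, held 0 matches to the motifs searched. Capitals mark an NF-kappaB stretch of overlapping matches and, nearer the start, the AP-1 match.
Tnfrsf9, chr4:150927749-150927998: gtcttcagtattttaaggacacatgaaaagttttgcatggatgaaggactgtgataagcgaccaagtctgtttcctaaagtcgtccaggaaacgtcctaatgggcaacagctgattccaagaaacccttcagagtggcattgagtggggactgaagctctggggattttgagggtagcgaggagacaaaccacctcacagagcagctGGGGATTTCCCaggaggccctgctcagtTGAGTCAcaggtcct

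Of all 32851 starts, 5.93% held the NF-kappaB site and 6.75% the AP-1 motif. For starts of genes tested the shares were 6.79% and 4.27%, and for those of genes called lower 9.09% and 5.45%. Among genes called higher, 24 had a promoter in the table, with 32 starts, and 5 of the 32 held each of these motifs. Tnfaip3 and Ccl9, described above, were the other genes called higher with both.

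**Figure D3:**
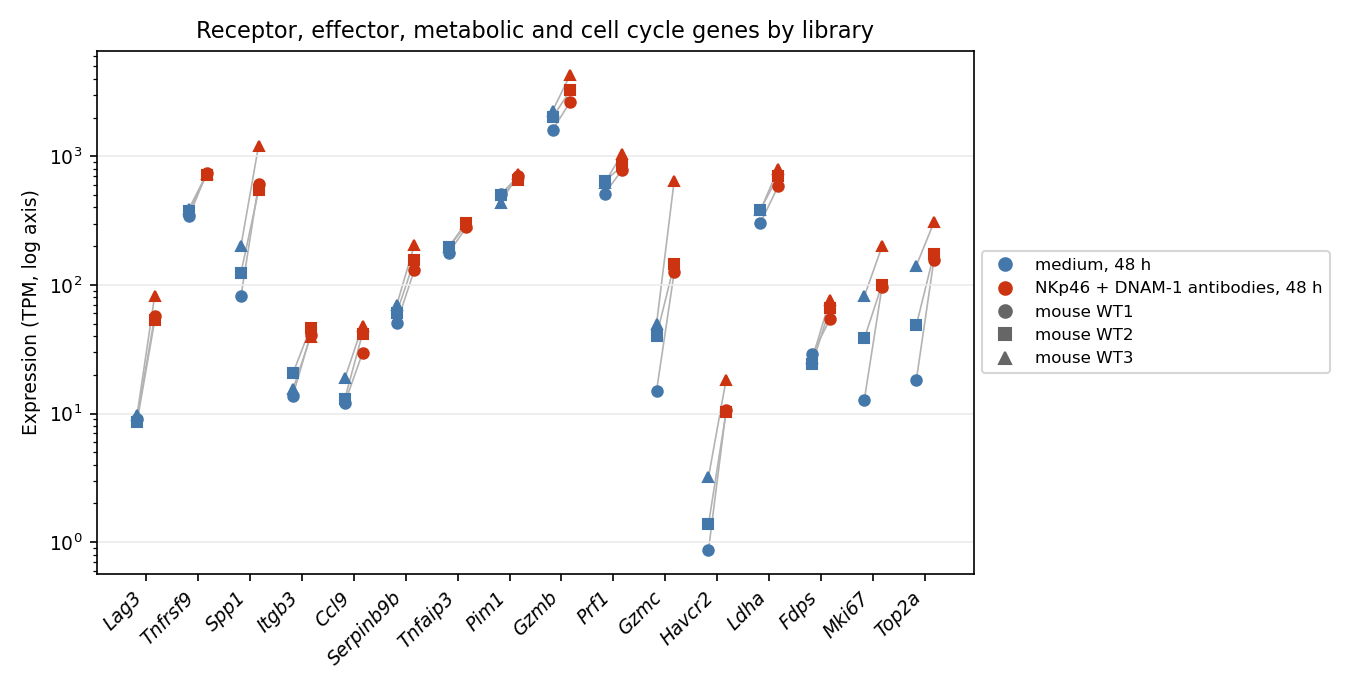
Expression in TPM (logarithmic vertical axis) of 16 genes that were higher with the antibodies, in each library, with colours, shapes and lines for medium, antibodies and mice. Lag3, Tnfrsf9, Spp1, Itgb3, Ccl9, Serpinb9b, Tnfaip3, Pim1, Ldha and Fdps were called without the block; Gzmb, Prf1, Gzmc, Havcr2, Mki67 and Top2a only with it.

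Lineage factors set NK cell identity and maturation. None of 24 NK lineage and maturation factors was called (background 0.782%), with a median of -0.08, and the defining factor Eomes differed by -0.03. With the block, Irf8 was higher, at 443, 637 and 541 TPM in medium and 719, 810.5 and 839 TPM with the antibodies (0.56 ± 0.13), and Klf2, a quiescence and trafficking factor, was lower, at 84.4, 51.5 and 42.5 TPM against 28.7, 23.3 and 14.3 TPM (-1.38 ± 0.32). Of 27 maturation markers, homing receptors and integrins, the 1 called (background 0.782%) was Ly6c2, a surface antigen of mature lymphocytes. It fell from 274, 294 and 296 TPM to 129.8, 136 and 129.7 TPM (-1.12 ± 0.11, adjusted p 0.00133). The egress receptor gene S1pr1, a known target of Klf2, was at 11.3, 7.14 and 6.30 TPM against 1.91, 3.13 and 1.26 TPM but was not called (adjusted p 0.118, and 0.0704 with the block). Thy1 (0.57) was higher with the block.

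Of 22 cytokine receptor genes, Il7r, the IL-7 receptor alpha chain, was the 1 called (background 0.782%). It fell from 38.1, 27.99 and 24.5 TPM to 8.79, 9.15 and 5.08 TPM (-1.86 ± 0.29, adjusted p 0.0231). Il2rb, the beta chain shared by the IL-2 and IL-15 receptors, was at 1756, 1922 and 1969.5 TPM against 2286, 2319 and 2339 TPM (0.30 ± 0.07), and was called higher with the block (adjusted p 0.0721, and 0.0202 with it). Pim1, a kinase gene induced by STAT5, rose from 506, 499.5 and 436 TPM to 699, 652 and 729 TPM (0.53 ± 0.08, adjusted p 0.0231), and Pim2 (1.19) was higher with the block. No other gene of the 19 in the JAK, STAT and SOCS list was called by either fit. Of 46 interferon-stimulated genes tested, Ifi213 alone was called (background 0.782%), and the list median was -0.15. Ifi213 was lower with the antibodies, at 30.03, 22.9 and 23.4 TPM against 56.2, 64.4 and 44.5 TPM in medium (-1.08 ± 0.20).

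The cell cycle list showed the largest median of any list, at 1.35 over 50 genes. Without the block 0 of the 50 were called and 38 had an unadjusted p under 0.05; with the mouse as a block 25 were called, all higher (background 2.02%). Within mice, 42 of the 50 (84.0%) were higher with the antibodies in 3 of 3, against 16.2% of all genes, and the list medians were 1.76, 1.09 and 0.99 in mice WT1, WT2 and WT3. Mki67, the proliferation marker Ki-67, was at 12.8, 38.3 and 81.6 TPM in medium and at 96.3, 101 and 199 TPM with the antibodies. Its difference of 1.82 ± 0.60 had an adjusted p of 0.171, and 0.0157 with the block.

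The medium libraries differed widely among themselves, and mouse WT3 was the highest in both groups. Relative to each gene's mean over the 6 libraries, the list median was -1.39, -0.41 and 0.17 in medium and 0.38, 0.54 and 1.09 with the antibodies. Top2a, a topoisomerase of dividing cells, was at 18.1, 48.5 and 141 TPM against 157, 174 and 307 TPM. The mitotic kinase gene Cdk1 was at 19.4, 7.36 and 47.6 TPM against 52.7, 72.6 and 151 TPM. Hells, a chromatin remodeller of replicating cells, had the lowest p of the list, at 13.2, 22.2 and 26.4 TPM against 47.7, 61.5 and 67.2 TPM (1.51 ± 0.30, adjusted p 0.0533, and 0.00503 with the block). Ccne1, the G1/S cyclin E1, followed at 6.83, 7.66 and 13.4 TPM against 23.5, 29.1 and 35.1 TPM (1.59, adjusted p 0.0812, and 0.0129 with the block). The replication genes Pcna (0.91), Mcm2 (0.99), Mcm7 (1.29) and Rrm1 (1.27) were called with the block as well. The blocked count of 25 was 19, 13 and 20 without the medium library of mouse WT1, WT2 and WT3, and 0, 0 and 3 without the antibody library of each.

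**Figure D4:**
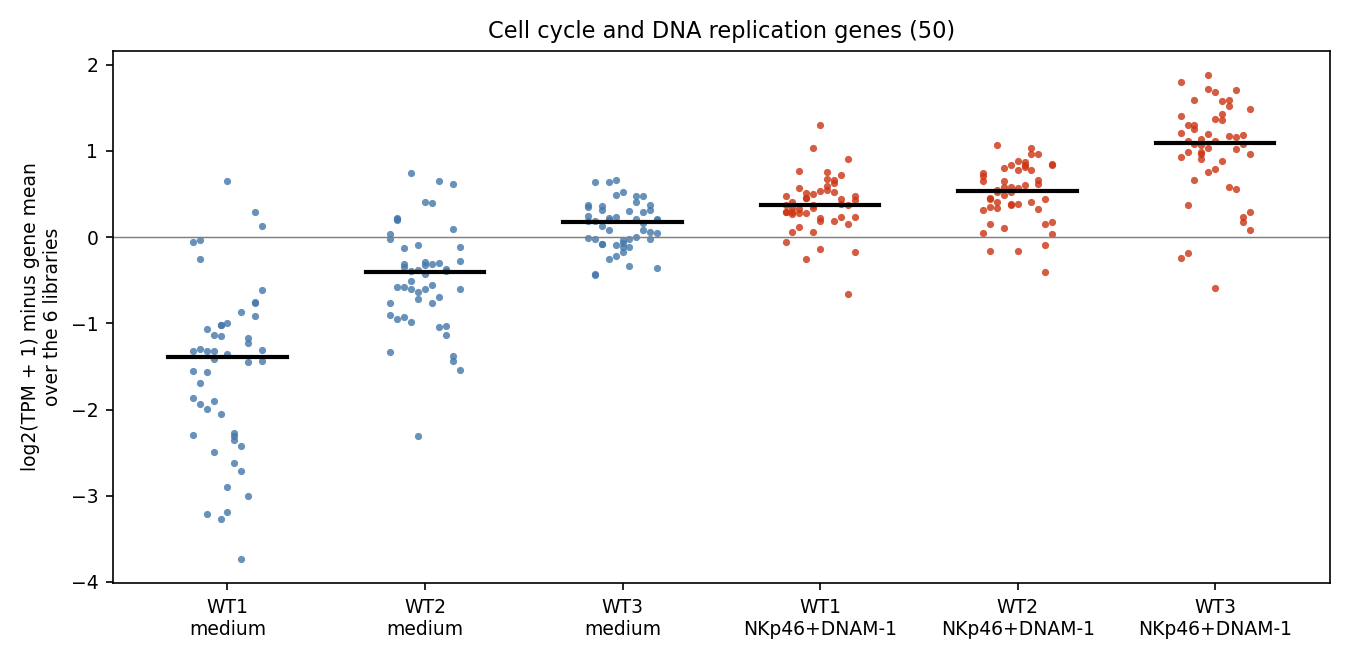
Levels of the 50 cell cycle and DNA replication genes in each library, as log2(TPM + 1) minus the gene's mean over the 6 libraries (vertical axis); points are genes and black bars the list median of the library. The medians are -1.39, -0.41 and 0.17 in the medium libraries of mice WT1, WT2 and WT3 and 0.38, 0.54 and 1.09 with the antibodies, so the spread among medium libraries is as wide as the shift.

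Sterol synthesis and uptake genes, which supply cholesterol and isoprenoids, had a median of 0.83 over 24 tested. Fdps, farnesyl diphosphate synthase, rose from 29.1, 24.4 and 26.9 TPM to 54.3, 66.6 and 77.0 TPM (1.26 ± 0.19, adjusted p 0.0222) and was the 1 called. With the block 8 were called, all higher (background 2.02%). These included the squalene epoxidase gene Sqle (1.58) and Hmgcs1 (1.03). Within mice, 17 of the 24 were higher in 3 of 3 (70.8%, against 16.2% of all genes tested), and the list medians were 0.75, 0.71 and 0.72. Without any 1 library, the blocked count was 0 to 5.

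Glycolysis was represented by Ldha, which makes lactate from pyruvate. It rose from 304, 385 and 379 TPM to 584, 701 and 796 TPM (0.96 ± 0.14, adjusted p 0.0191). Of 25 genes of glucose uptake and glycolysis, it was the 1 called. With the block 7 were higher and 1 lower (2.02% and 1.83% of all genes tested). Gapdh was at 562, 858 and 928 TPM against 1297, 1343 and 1559 TPM (0.87 ± 0.17, adjusted p 0.0505, and 0.0104 with the block). Pgk1 (0.84), Pkm (0.72), Pgam1 (0.81), Tpi1 (0.42) and the lactate transporter gene Slc16a1 (1.29) were higher with the block, and Pfkp (-0.50) was lower. Without 1 library, the blocked count of 7 was 1 to 6.

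Ribosomal protein genes form the cytosolic ribosome. Of 40 tested, 38 were above 0 in log2 difference (6280 of 13689 over all genes tested), and the median was 0.19. In 3 of 3 mice 33 were higher (82.5%, against 16.2% of all genes tested). Rps2 rose from 1235, 1463 and 1591 TPM to 1925, 2053 and 2055 TPM (0.50 ± 0.09, adjusted p 0.0369) and was the 1 called. With the block 5 were called (background 2.02% higher), Rps3 (0.31), Rps6 (0.23), Rps20 (0.37) and Rps4x (0.26) with it, and 0 to 4 without 1 library. Outside the list, and picked out after its value was seen, Rpl41 was also called (0.36 ± 0.06, adjusted p 0.0337), and Rps26 (0.48) and Rpl29 (0.45) passed with the block. Many of these genes have processed pseudogenes that can share their reads.

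Nucleolar and growth genes split in direction. Ncl (0.54), Npm1 (0.42) and the polyamine synthesis gene Odc1 (0.75) were called higher with the block (background 2.02%). They belong to 24 genes of the Myc, amino acid transport and ribosome biogenesis list, of which 0 were called without the block (background 0.782%). The amino acid transporters Slc7a5 (-0.81) and Slc38a2 (-0.57) were lower with the block (background 1.83%), and Myc itself was not called (-0.14). Of the chaperones, Hspe1, the mitochondrial co-chaperonin, rose from 80.3, 92.1 and 108 TPM to 166, 181 and 181 TPM (0.92 ± 0.14, adjusted p 0.0231), and Hspa8 (0.51) and Hsp90ab1 (0.39) were higher with the block. Of 35 oxidative phosphorylation subunits 0 were called (background 0.782%), and the median was 0.21. In 3 of 3 mice 18 were higher (51.4%, against 16.2% of all genes tested).

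In the integrated stress response, ATF4 drives amino acid and redox genes. Of 19 genes tested, 4 were called lower and 0 higher (7 and 0 with the block). Over all genes tested 0.497% were called lower, and 1.83% with the block. The list median was -0.62, with within-mouse medians of -0.59, -0.56 and -0.58. In 3 of 3 mice 12 of 19 were lower (63.2%, against 20.3% of all genes tested). Atf4 fell from 489, 376 and 427 TPM to 261, 287 and 289 TPM (-0.62 ± 0.11, adjusted p 0.0337). Trib3, a pseudokinase target of ATF4, fell from 31.5, 10.1 and 17.6 TPM to 3.77, 1.48 and 2.12 TPM (-2.50 ± 0.43). Ppp1r15a (GADD34), which reverses the response by dephosphorylating eIF2 alpha, fell from 100.1, 95.2 and 78.7 TPM to 40.2, 41.9 and 37.6 TPM (-1.17 ± 0.16). Shmt2, of mitochondrial one-carbon metabolism, fell by 0.62 ± 0.11, and Ddit3 (-1.47), Aldh18a1 (-0.65) and Pck2 (-0.86) were lower with the block. Asns, Psat1 and Phgdh, 3 serine and asparagine synthesis genes, had differences of 0.21, -0.03 and -0.01. The count of 4 was 1 without the medium library of mouse WT1 or the antibody library of WT1, and 0 without the antibody library of WT2 or WT3 or with only the 2 groups in the fit. The blocked 7 was 0 to 4 without 1 library.

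Of 24 survival and death genes 0 were called (background 0.782%). With the block, Bak1 (0.89) was higher, as was Bcl2a1d (1.02), whose reads can be shared with its paralogs. Bcl2 was lower with the block (-0.61). Over all genes tested, 2.02% were called higher and 1.83% lower with the block. In the glucocorticoid-responsive and metallothionein list of 14, Il7r and Mt1 were called without the block (background 0.782%). Mt1, a metal-binding metallothionein, was listed at 0 in every medium library and at 10.1, 14.2 and 11.4 TPM with the antibodies, and Mt2 was listed at 0 in medium and at 5.42, 4.96 and 4.87 TPM with the antibodies (called with the block). Genes listed at 0 in medium passed the filter on low values only through antibody libraries, which list more genes above 0, so their calls support nothing by themselves. The glucocorticoid-induced genes Sgk1 (-1.39) and Per1 (-0.87) were lower with the block.

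**Figure D5:**
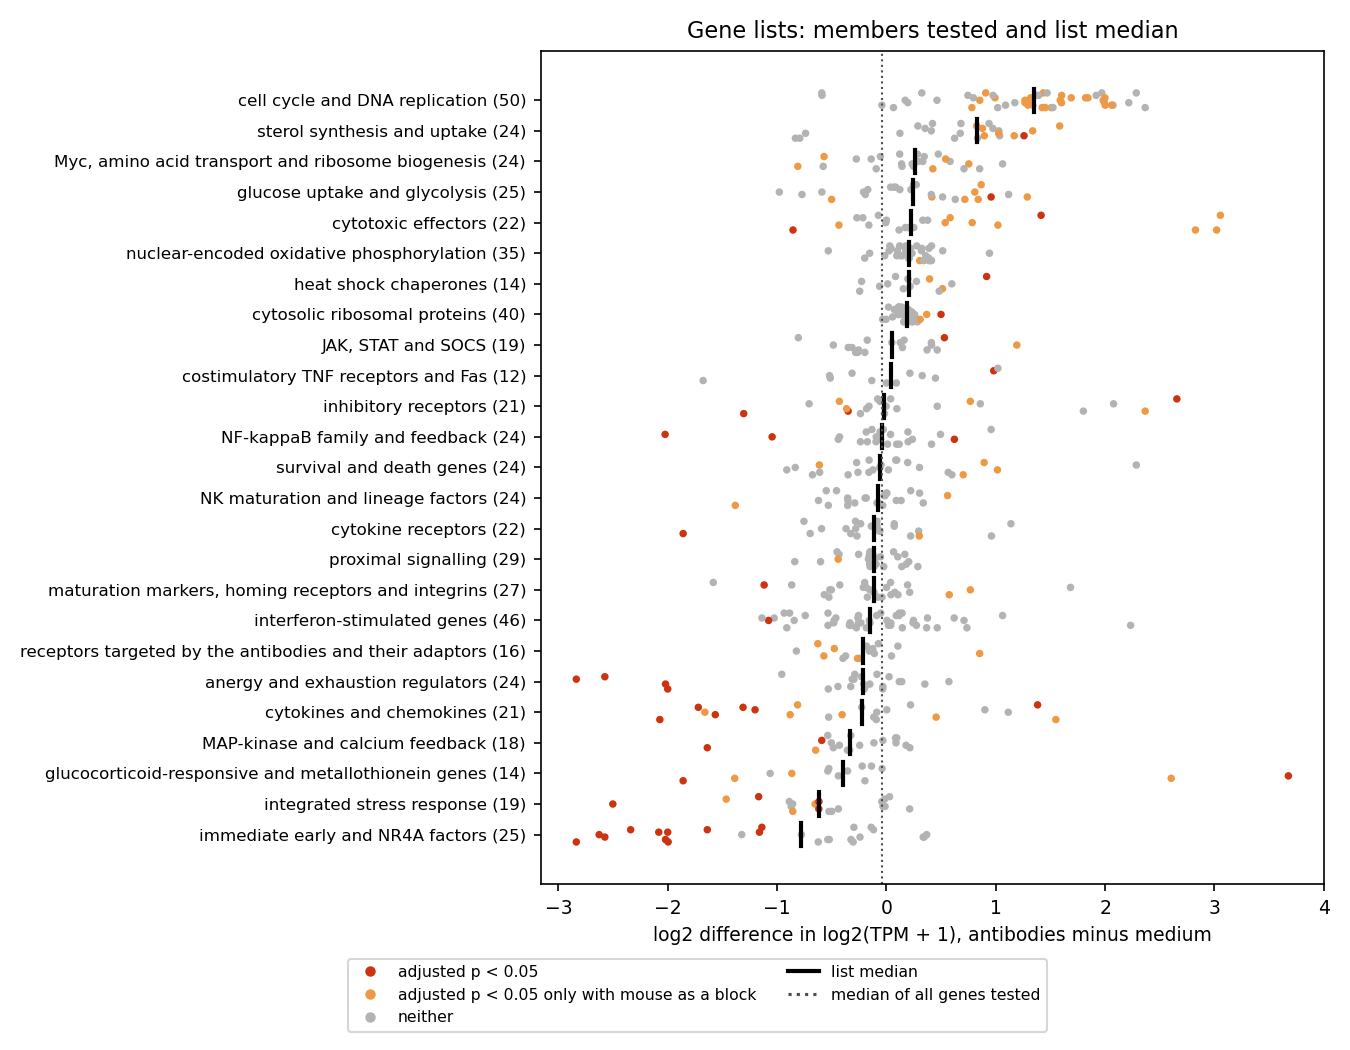
Log2 difference between the antibody and medium groups (horizontal axis) for each gene tested in 25 gene lists, with the number tested in brackets; black bars are list medians and the dotted line is the median of all genes tested, -0.04. Red points passed the test, orange points passed it only with the mouse as a block. Early genes and the integrated stress response lie lowest and cell cycle and sterol genes highest.

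The other large changes with a gene symbol were in genes outside these lists. Spp1, a secreted phosphoprotein that acts as a cytokine, rose from 81.5, 124 and 201 TPM to 608, 543 and 1212 TPM (2.53 ± 0.43, adjusted p 0.0337, and 0.000358 with the block). Its call was lost in 8 of 16 other processing choices, among them leaving out any 1 antibody library. With the block and 1 library left out, Spp1 was called in 6 of 6 fits. Itgb3, the integrin beta 3 subunit that forms an osteopontin receptor, rose from 13.8, 20.5 and 15.4 TPM to 40.9, 46.6 and 39.6 TPM (1.32 ± 0.20). Ifitm2, of an interferon-induced family with similar members, was listed at 0 in all medium libraries and at 8.44, 11.0 and 33.6 TPM with the antibodies. The helicase gene Pif1 was at 0, 0.50 and 0.62 TPM against 10.3, 4.53 and 4.69 TPM, and Filip1 at 0.92, 0 and 0 TPM against 7.12, 4.93 and 6.74 TPM. Like Ifitm2, Pif1 and Filip1 passed the filter on low values only through antibody libraries, with medium means of 0.37 and 0.31 TPM. Calls of these genes therefore support nothing by themselves. Those of Pif1 and Filip1 were lost in 9 and 6 of 15 other processing choices. C1qtnf6 (1.53), Tmem160 (1.73) and the mitochondrial iron-sulfur gene Cisd1 (1.39) were the remaining large rises.

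Among the falls, Lbhd1 was at 54.9, 21.5 and 63.1 TPM in medium and at 7.76, 4.33 and 5.41 TPM with the antibodies (-2.69 ± 0.46). Proca1 was at 6.55, 6.00 and 7.19 TPM against 0.65, 0 and 1.09 TPM (-2.32 ± 0.44). Proca1 passed the filter on low values only through the medium libraries, and its call was lost in 9 of 15 other processing choices. Of the 107 genes called, 17 have no symbol in the table, 9 were listed at 0 in every medium library and 2 at 0 in every antibody library. Genes called but outside the naming rule were picked out after their values were seen. They include the aminoacyl-tRNA synthetase genes Tars (-0.94) and Cars (-1.0), the neutral amino acid transporter Slc1a4 (-1.70), Vegfa (-1.67), the Zfp36 relative Zfp36l1 (-1.25) and the GTPase-activating protein gene Tagap (-1.64), all lower. The adhesion receptor genes Crtam (0.76) and Pecam1 (0.74) were higher.

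The second antibody pair of the table, to NKp46 and NKG2D, was compared directly with NKp46 and DNAM-1, since both share the medium libraries. Of 13689 genes, 2 were called (0.0146%) and 167 had an unadjusted p under 0.05 (1.22%); with the mouse as a block 0 were called and 230 had an unadjusted p under 0.05. None of the named genes above was called. Nr4a1 differed by -0.20, Ccl3 by 0.19, Ifng by -0.06 and Lag3 by -0.16 between the pairs, each with an adjusted p of 1. Cd226 was at 71.5, 73.2 and 56.6 TPM with the DNAM-1 pair and at 46.6, 51.8 and 43.96 TPM with the NKG2D pair, a difference of 0.48 ± 0.15 (unadjusted p 0.00737, adjusted p 1). Tnfrsf9 was higher by 0.22 and Lbhd1 lower by 1.88 with the DNAM-1 pair, with unadjusted p of 0.0199 and 0.00227 and adjusted p of 1. A p that misses the threshold does not show that the pairs act alike.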

How the data were processed

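Bulk RNA-seq libraries were described by the deposited table of TPM values, made by the authors with STAR, RSEM and GRCm39 per the submitters' processing notes; versions and settings are not given in the sources used here. TPM keep no depth, so no counting interval was given and the number of libraries limits the precision. The 13689 of 56923 genes whose mean over the table's 9 libraries reached 1 TPM were tested with limma 3.58.1 in R 4.3.3 on log2(TPM + 1) with an intensity trend. All 3 groups of the table shared 1 estimate of the spread. Tests were two-sided, with Benjamini-Hochberg adjustment over all genes tested, and calls were made below an adjusted p of 0.05. Fold changes are on the log2(TPM + 1) scale, which understates changes of low genes; errors are standard errors of the fit. The script was tested on simulated data. Some results are not reported here.

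Groups and mouse numbers came from the column names. Same-numbered libraries were read as 1 mouse, from the number joined to the genotype there; their deviations from the group means correlated at 0.056, 0.033 and 0.088. No label states separate cultures beyond that, so p-values measure the spread between these samples. All 9 libraries carry 1 batch date in the labels.

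Named genes were the 12 largest rises and falls called with a symbol (predicted and small RNA genes left out), all list members called, the receptor and adaptor genes, and, for lists with under 2 called, the 2 members with the lowest p. List members called with the block were named in addition, after their values were seen. The comparison, members and lists were chosen with earlier results of these data known. Alternatives were other pseudocounts, filters, scalings, spread models, groupings, the replicate block and leaving out each library. Promoters were matched by symbol for 64 of the 86 named genes.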

Additional observations from a re-analysis of the deposited data

Results flagged for a closer look

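Gm26493 and ENSMUSG00002074852, which has no symbol, were the 2 genes called between the antibody pairs in the direct limma contrast, each with an adjusted p of 0.034. Gm26493 was listed at 0 in the medium and NKp46 plus NKG2D libraries and at 13.01, 10.8 and 10.6 TPM with NKp46 plus DNAM-1. ENSMUSG00002074852 was listed at 0 in the medium and NKp46 plus DNAM-1 libraries and at 25.3, 12.8 and 12.3 TPM with NKp46 plus NKG2D. With the mouse as a block their adjusted p was 0.216 and 0.179. Both genes have zeros in 6 libraries out of 9 and reached the filter on low values each only through the 1 group where it was high, so these p-values are no independent evidence of a difference. Neither has a fold, since a group was listed at 0.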

How the results depend on the processing

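Of the 50 named genes called, 14 were called under every pseudocount, filter, scaling, spread model and sample choice tried with all libraries or without 1, and with the block, except the title groups (Btg2, Ccl3, Ccl4, Dusp2, Egr1, Egr2, Fos, Lag3, Ly6c2, Nfkbid, Nr4a1, Nr4a2, Tnfrsf9 and Zfp36), and none changed sign in them. With the block and 1 library left out together, 13 of the 14 were called in all 6 fits and Ly6c2 in 4. Title groups apart, the calls of Klrd1 and Shmt2 were lost in 9 of 16 other processing choices. Those of Atf4, C1qtnf6, Hspe1, Ifi213, Rps2, Serpinb9b, Spp1 and Tnfsf14 were lost in 8 of 16. For Ccl9, Cd69, Cisd1, Il7r, Lbhd1, Spry2 and Tmem160 the call was lost in 7 of 16. The count of 107 for NKp46 plus DNAM-1 against medium was 45 with no filter, 23 with only the 2 groups and 1 with the title groups. It was 26 to 516 without 1 library, the highest without the medium library of mouse WT3. With the replicate block it was 528, and with the block and without 1 library 30 to 306 (252, 293 and 306 without a medium library of WT1 to WT3, 33, 30 and 46 without an antibody library), an alternative chosen after seeing the data. The pairing of mice thus moved the count by over 1.5 times and ended none of the 107 calls. For the direct contrast of the antibody pairs the count of 2 was 1 with a pseudocount of 0.1, and 0 with a mean of at least 5 TPM (110 at an unadjusted p under 0.05), the replicate block (230) and the title groups (636). It was 0 to 4 without 1 library. Grouped by titles, sign changes were found for Mt1 (-0.17), Filip1 (-0.10), Ccl3 (0.20), Proca1 (0.088), Spry2 (0.024), Ccl4 (0.14), Ifng (0.21), Cd69 (0.11), Pim1 (-0.028), Atf4 (0.009) and Shmt2 (0.038). The cause of these shifts was not tested. With 3 libraries a group, an exact permutation test of 1 gene could not go below p = 0.1. TPM give no depth, so a gene listed at 0 has no upper limit here.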
